A study of Mus musculus with 34 samples.

Results

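The preadipocytes that served as the starting controls of the RNA-Seq experiments on H3.3K36M and on *Nsd2* knockdown were compared with each other at day 0 (D0), before any differentiation cocktail. They are 2 of the 34 samples of the series and 2 of its 14 RNA-Seq libraries, taken by their labels as the WT and the control (Con) library of D0. WT cells carried a retrovirus expressing FLAG-tagged wild-type histone H3.3, and Ctrl cells carried a lentivirus expressing a control shRNA. Both labels give the same material, immortalized GR-flox/flox brown preadipocytes of strain C57BL/6J, in which GR is the glucocorticoid receptor encoded by *Nr3c1*. The study's methods describe preadipocytes of brown fat of newborn mice, immortalized with SV40 large T antigen. They do not state how dense these cells were when collected at D0. Neither source used here says whether both populations came from 1 immortalized pool, were grown in the same week or passed the same number of divisions. The partner of the WT library is the D0 library of cells expressing H3.3K36M, and the partner of the Ctrl library is the D0 library of *Nsd2* knockdown (Nsd2 KD) cells. Unless others are named, the retroviral libraries below are the WT and K36M libraries of D0, and the lentiviral ones those of Ctrl and Nsd2 KD.

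Each condition has 1 library, so no test between the populations was possible, and every difference is one between 2 libraries in which vector type, transgene and experiment cannot be told apart. Depth was similar, with 21388064 mapped reads behind the WT library and 19757822 behind the Ctrl library. Levels are in RPKM, which divides a transcript's reads by its length and by the library's depth, and log2 ratios are Ctrl over WT. Bracketed 95% intervals are exact (Clopper-Pearson) and come from the reads recovered behind each RPKM. They cover counting error only, and the spread between cultures is not in them. In such bulk RNA, fewer cells expressing a gene and less of its RNA per cell cannot be told apart.

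Brown preadipocytes are fibroblast-like mesenchymal cells that grow until confluent and then respond to hormones by turning on *Cebpb*, *Pparg* and *Cebpa* and, with them, lipid storage and thermogenic genes. Like other fibroblasts they also carry programmes that react to their surroundings. Interferon signalling turns on antiviral genes through STAT and IRF factors, amino acid shortage or unfolded protein turns on the transcription factor ATF4 and its targets, and falling membrane sterol releases SREBP2 to turn on cholesterol synthesis.

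The populations differed widely at D0. Of 23109 genes, among them 646 transcripts without a symbol that were kept as entries of their own, 12175 reached 1 RPKM in either library. Of these, 864 (7.1%) were more than 2-fold higher in Ctrl cells, 1843 (15.1%) were more than 2-fold lower, and 9468 lay within 2-fold. The counting interval left out equal levels for 830 of the higher and 1790 of the lower genes, so read counting was not what limited these counts. Larger differences were also present, with 325 genes past 4-fold and 189 past 8-fold on the higher side and 427 and 170 on the lower side. The median log2 ratio of all 12175 genes was −0.24, and list medians below are given relative to it. With both libraries rescaled to a median of 0, 1219 genes were higher and 1242 lower, which moved the lower share of the called genes from 68.1% to 50.5%.

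**Figure D1:**
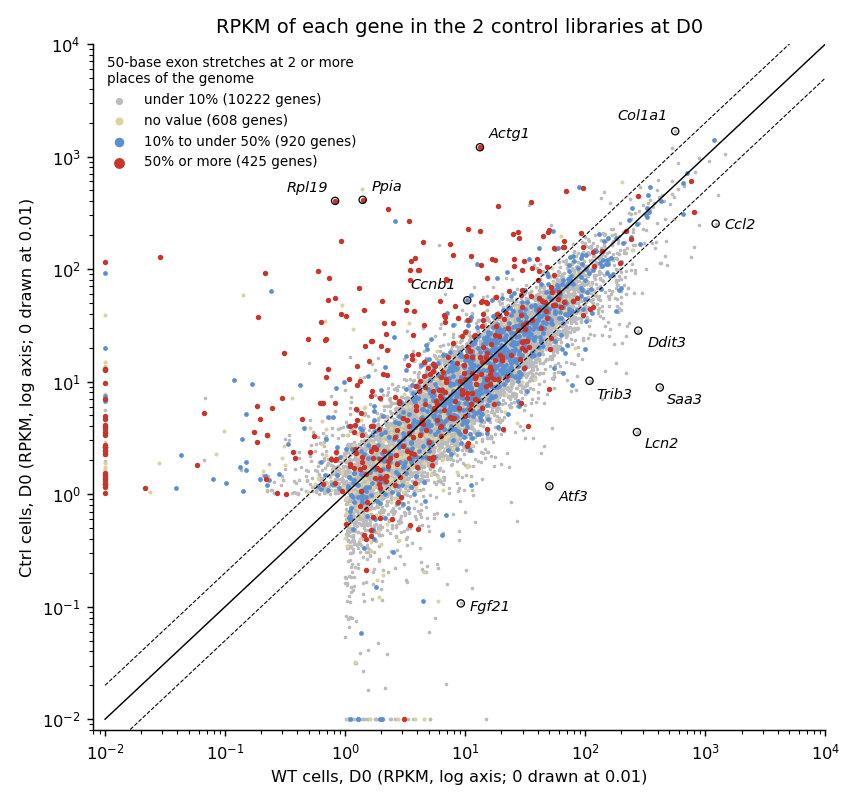
RPKM in the WT library (x) against RPKM in the Ctrl library (y) at D0, both on log10 axes, for genes reaching 1 RPKM in either library. Points are genes coloured by how much of their exon sequence is repeated in the genome, genes at 0 are drawn at 0.01, and dashed lines mark 2-fold. The 864 genes above the upper line hold many of the genes with 50% or more repeated stretches, such as *Rpl19*, *Ppia* and *Actg1*, and the 1843 below the lower line are mostly under 10%, such as *Ddit3*, *Lcn2* and *Fgf21*.

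The genes furthest up in Ctrl cells were mostly of a special class, those whose exon sequence occurs again elsewhere in the genome. This class was not most of the higher side, since 486 of the 864 higher genes had under 10% of such sequence. Many housekeeping genes have such copies, because their messages were copied back into the genome as processed pseudogenes. Of the 12 highest genes by ratio, 9 had 50% or more of their exon stretches repeated (among them *Rpl19*, *Atp5g2*, *H2ac23*, *Fam177a*, *Fam177a2*, *Ppia*, *Sumo2* and *Rpl23a*), 2 lay between 10% and 50% (*Hnrnpa1l2-ps2* and *H2ac13*) and 1 had no value (*Gm20594*). *Rpl19*, a ribosomal protein of the large subunit (chr11:97888024-97891806, plus strand, mm9), stood at 0.824 RPKM in WT cells and 404 RPKM in Ctrl cells. *Ppia*, cyclophilin A (chr11:6315446-6319820, plus strand), stood at 1.40 and 412 RPKM. *Actg1*, cytoplasmic gamma actin (chr11:120207004-120209856, minus strand), stood at 13.3 and 1209 RPKM, while *Actb*, cytoplasmic beta actin, differed little, at 1179 and 1402 RPKM. All 4 are known as abundant messages of growing cells. The H2A histone gene *H2ac23* had no read in WT cells and 115 RPKM in Ctrl cells.

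The sequences below show what separates these genes from ordinary ones. Each is a 50-base stretch of an exon in mm9, read on the gene's strand, and the number of places in the genome that hold the same 50 bases on either strand was counted. Nothing is capitalized, since the whole stretch is what repeats or does not.
Rpl19, chr11:97889696-97889745, plus strand, 4 places: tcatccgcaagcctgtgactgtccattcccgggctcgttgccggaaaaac
Ppia, chr11:6319177-6319226, plus strand, 3 places: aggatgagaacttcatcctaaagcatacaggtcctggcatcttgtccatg
Actg1, chr11:120208419-120208468, minus strand, 4 places: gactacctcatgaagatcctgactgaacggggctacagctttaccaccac
Ddit3, chr10:126732936-126732985, plus strand, 1 place: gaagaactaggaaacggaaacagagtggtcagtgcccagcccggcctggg
Lcn2, chr2:32243143-32243192, minus strand, 1 place: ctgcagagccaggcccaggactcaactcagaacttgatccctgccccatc
The first 3 belong to genes far higher in Ctrl cells, and the last 2 to *Ddit3* and *Lcn2*, genes far lower in Ctrl cells that are described below.

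Across all genes, a value for repeated sequence (the percentage of sampled 50-base exon stretches found at 2 or more places) was available for 11567 genes, or 95%. Of the 425 genes with 50% or more repeated stretches, 206 (48.5%) were higher and 40 (9.41%) lower in Ctrl cells, with a median log2 ratio of 0.88. Of the 10222 genes with under 10%, 486 (4.75%) were higher and 1584 (15.5%) lower. Of the 920 genes between these limits, 11% were higher and 13.3% lower. The lower side was thus at nearly the same share with and without repeated genes, and the higher side was not.

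**Figure D2:**
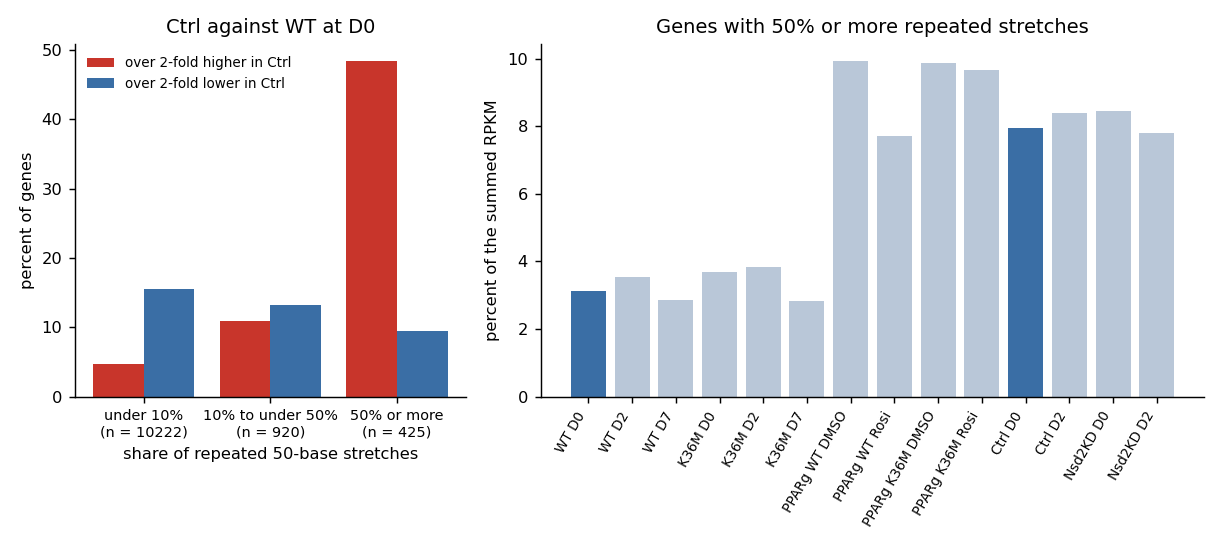
Left, percent of genes (y) more than 2-fold higher (red) and more than 2-fold lower (blue) in Ctrl than in WT cells at D0, by the share of their 50-base exon stretches found at 2 or more places (x), where the higher share goes from 4.75% to 48.5% and the lower share from 15.5% to 9.41%. Right, percent of the summed RPKM (y) taken by the 425 genes with 50% or more repeated stretches in each of the 14 libraries (x, the D0 controls in dark blue), which is 2.82% to 3.85% in the 6 WT and K36M adipogenesis libraries and 7.73% to 9.94% in the other 8.

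The pattern was not one of D0 or of these populations alone. Genes with 50% or more repeated stretches made up 2.82% to 3.85% of the summed RPKM in the 6 libraries of the WT and K36M adipogenesis experiment, and 7.73% to 9.94% in the other 8 libraries, including 4 retroviral libraries of PPARγ-expressing cells. Of the 206 repeated genes higher in Ctrl cells, 165 had all 6 of those libraries below all 8 others, against 17 of the 486 higher genes under 10%. The sources used here do not say how reads matching several places were handled in each experiment, and its part in these values was not tested. By group, 32 of 79 ribosomal protein genes were higher and 3 lower in Ctrl cells. Only 6 of those 79 were under 10% repeated, of which 1 (*Rps27a*) was higher and 0 lower, with a median log2 ratio of 0.15. Of 38 linker and clustered core histone genes, taken by symbol, 29 were higher and 3 lower. Genes with repeated sequence were not counted apart among them, and *H2ac23* is 100% and *H2ac13* 31% repeated. Genes under 10% repeated are called single-copy in what follows.

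The genes furthest down in Ctrl cells were all under 10% repeated and of mixed function. By ratio the lowest 12 were *Ppef1*, *Fgf21*, *Car6*, *Lcn2*, *Scara5*, *Mos*, *Chchd10*, *Saa3*, *Adm2*, *AA467197*, *Atf3* and *Gfra1*. *Ppef1*, a calcium-binding protein phosphatase, stood at 6.86 RPKM in WT and 9.13 in K36M cells, against 0.0204 in Ctrl and 0.208 in Nsd2 KD cells, with 364 reads in WT and 1 in Ctrl cells. *Car6*, a secreted carbonic anhydrase, stood at 11.3 and 16.3 RPKM against 0.148 and 0. *Chchd10*, a mitochondrial intermembrane space protein, stood at 10.1 and 40.2 RPKM against 0.214 and 0.182. In each of these 3 genes both retroviral D0 libraries lay above both lentiviral ones. In retroviral PPARγ-expressing cells without PPARγ ligand, WT and K36M, *Ppef1* stood at 0.13 and 0.116 RPKM. *Car6* stood there at 0.0336 and 0.42 RPKM, and *Chchd10* at 0.679 and 1.08.
*Scara5*, a ferritin receptor, and *Gfra1*, a receptor for the growth factor GDNF, were high in WT cells alone among the D0 libraries. *Scara5* stood at 5.61 RPKM in WT cells and 0.677 in K36M cells, against 0.08 in Ctrl and 0.181 in Nsd2 KD cells, and *Gfra1* at 24.2 and 3.89 against 0.848 and 4.06.

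*Mos*, the cellular counterpart of the oncogene of a murine sarcoma retrovirus, separated libraries by vector. It stood at 5.10 RPKM in WT cells (158 reads) and had 0 reads in Ctrl cells, which makes it at least 48.6-fold higher in WT cells at a floor of 3 reads. It ran from 0.937 to 24.7 RPKM over all 10 retroviral libraries of the series and from 0 to 0.0343 RPKM over all 4 lentiviral ones. *Mos* (chr4:3797804-3799252, minus strand, mm9) is best known from oocytes. Whether reads of a vector were counted toward it was not tested.

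Among single-copy genes, the far higher side in Ctrl cells was shorter and its values lower. *Cck*, the peptide hormone cholecystokinin, stood at 1.09 RPKM in WT and 5.21 in K36M cells, against 16.6 in Ctrl and 154 in Nsd2 KD cells. *Mxd3*, a MAX partner expressed in dividing cells, stood at 3.24 and 2.75 RPKM against 28.3 and 13.8. *Mfap2*, a microfibril protein, stood at 4.48 and 2.91 RPKM against 30.1 and 12.6. In all 3 genes both lentiviral libraries were the higher ones. *Peg3*, a paternally expressed zinc finger gene, was at 0.819 RPKM in WT cells and 5.49 RPKM in Ctrl cells, but K36M cells (2.93) lay above Nsd2 KD cells (1.54). *Rarres1*, a retinoic acid-induced membrane protein, was high in Ctrl cells alone, at 16.3 RPKM against 1.89 in WT, 0.428 in K36M and 0.935 in Nsd2 KD cells. This group was limited to genes under 10% repeated after the values were seen, and 3 of its 12 (*Rps27a* and *Lars2* among them) still had all 6 adipogenesis libraries below the other 8. It also held *Scd3*, *Fam166a*, *Crip1* and *Adamts9*.

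Genes of the integrated stress response, the programme run by ATF4, were lower in Ctrl cells. Of 28 stress genes tested, 13 were lower in Ctrl cells and 1 was higher, with a median 0.54 log2 units below that of all genes, and in all 13 lower genes both lentiviral libraries lay below both retroviral ones. Over all genes, 42.4% lay below in this way whatever their fold, and 81.7% of the 1843 lower genes did, so that such a position is common among lower genes of any kind. The lower members were mainly ATF4 and its targets, with the NRF2 target *Hmox1*, heme oxygenase, among them (112 and 41 RPKM in WT and Ctrl cells). The 1 higher gene was the heat shock gene *Hspa1b*, at 3.68 and 25.8 RPKM, of which 62% is repeated sequence.

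*Atf4* itself stood at 319 RPKM in WT and 372 in K36M cells, against 99.2 in Ctrl and 82.9 in Nsd2 KD cells. Its best-known targets differed more. *Ddit3*, encoding CHOP (chr10:126727830-126733344, plus strand, mm9), stood at 275 and 294 RPKM against 28.4 and 21.3, a log2 ratio of −3.28 [−3.42, −3.15]. *Trib3*, a pseudokinase that restrains ATF4 and AKT, stood at 108 and 109 RPKM against 10.2 and 2.01. The retroviral pair agreed closely in these genes, and the lentiviral pair was lower by several fold.
*Chac1*, which degrades glutathione, stood at 83.4 RPKM in WT and 116 in K36M cells, against 8.48 in Ctrl and 1.61 in Nsd2 KD cells. *Slc7a11*, the cystine importer, stood at 23.3 and 28.3 RPKM against 1.74 and 0.211. *Atf3*, a stress-induced repressor, stood at 50.2 and 60.7 RPKM against 1.18 and 1.51. The amino acid enzymes *Asns*, *Mthfd2*, *Shmt2* and *Psat1* and the factors *Atf5* and *Sesn2* were also past 2-fold lower. *Fgf21*, a hormone secreted under stress, stood at 9.18 and 26.6 RPKM against 0.107 and 0.121. *Adm2*, a secreted peptide of the calcitonin family, stood at 26.8 and 62.3 RPKM against 0.581 and 0.

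Several of these promoters hold the composite site that ATF4 and C/EBP proteins bind together. RefSeq promoters (GRCm38.p6, 250 bases before to 50 after the start, 300 in all) were searched on both strands for TGATGNAA, and the match is in capitals in the 3 promoters shown, chosen because their genes lie near the far end of the stress list.
Chac1, chr2:119350992-119351291, plus strand, 1 match beginning at position −193 from the start: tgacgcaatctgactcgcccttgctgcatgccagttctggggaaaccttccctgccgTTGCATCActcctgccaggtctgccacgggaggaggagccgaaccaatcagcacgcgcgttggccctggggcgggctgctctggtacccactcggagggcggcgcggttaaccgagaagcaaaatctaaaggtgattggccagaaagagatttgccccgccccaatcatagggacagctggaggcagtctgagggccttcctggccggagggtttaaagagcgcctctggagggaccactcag
Fgf21, chr7:45615441-45615740, minus strand, 1 match at −139: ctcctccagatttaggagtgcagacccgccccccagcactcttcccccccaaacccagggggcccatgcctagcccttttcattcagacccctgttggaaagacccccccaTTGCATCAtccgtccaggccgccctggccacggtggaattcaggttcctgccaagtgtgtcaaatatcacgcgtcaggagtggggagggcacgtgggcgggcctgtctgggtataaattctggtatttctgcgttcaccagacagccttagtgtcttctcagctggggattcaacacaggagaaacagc
Slc7a11, chr3:50443564-50443863, minus strand, 2 matches at −66 and −47: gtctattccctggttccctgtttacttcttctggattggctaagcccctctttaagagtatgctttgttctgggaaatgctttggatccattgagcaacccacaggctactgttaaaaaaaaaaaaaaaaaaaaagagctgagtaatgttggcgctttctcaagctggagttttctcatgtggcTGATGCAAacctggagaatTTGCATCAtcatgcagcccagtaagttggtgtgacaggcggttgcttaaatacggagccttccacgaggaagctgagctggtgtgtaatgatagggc
The motif was found for 5 of 24 stress genes with a promoter in the table, and for 5 of the 12 that were lower. Of all 9301 tested genes with a promoter, 2.67% held it. The *Ddit3* promoter had 0 matches. A match is a description of letters and not a measured binding site.

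**Figure D3:**
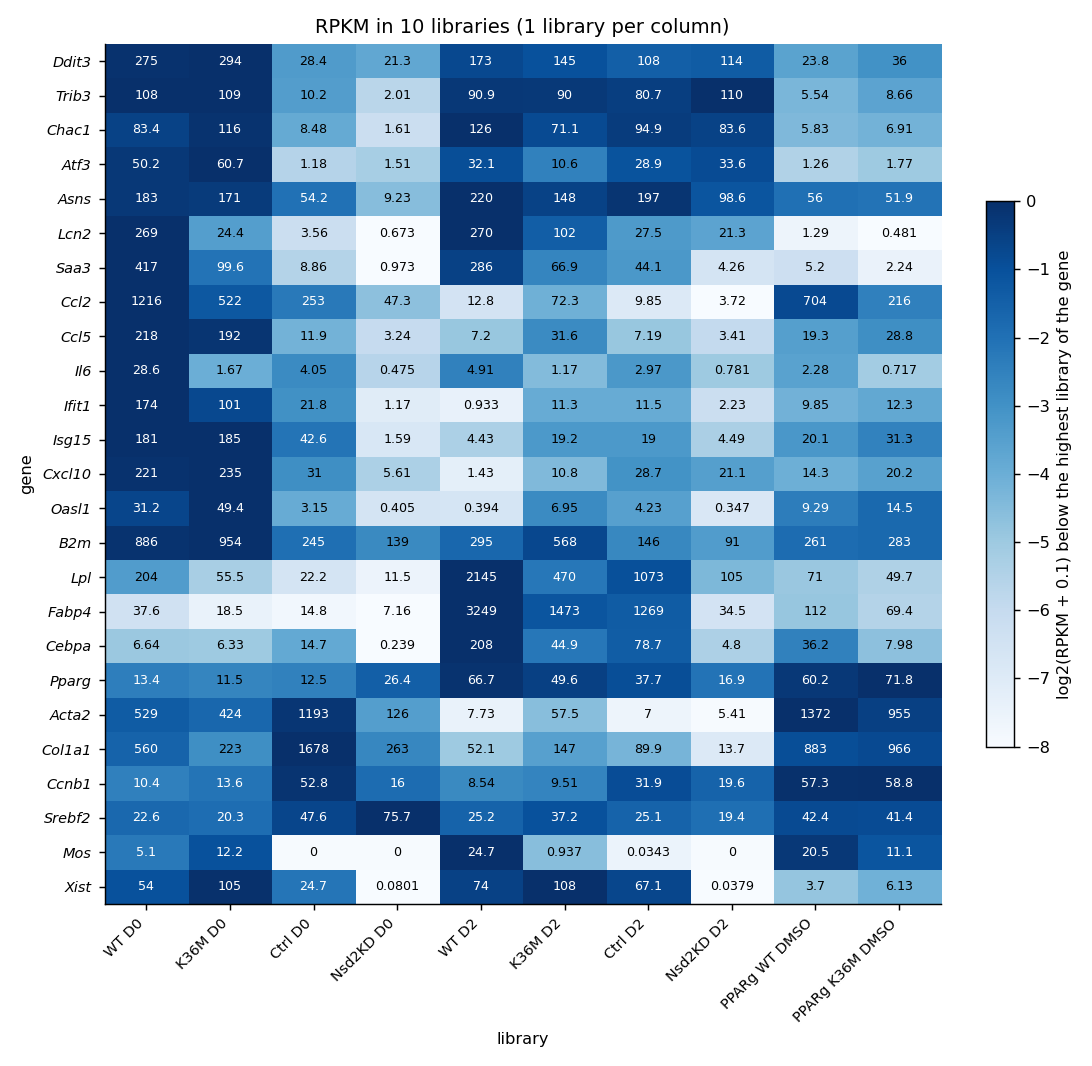
RPKM of named genes (rows) in 10 libraries (columns), printed in each cell, with the shade giving log2(RPKM + 0.1) below the highest of the libraries shown for that gene. Stress genes such as *Ddit3* (275 and 294 against 28.4 and 21.3 RPKM) split the 4 D0 libraries of the WT, K36M, Ctrl and Nsd2 KD cells by experiment, while *Lcn2* was high in WT cells (269 RPKM) and lower in the other 3 (0.673 to 24.4).

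Interferon-stimulated genes had the largest lower share of the 26 gene lists. Of 39 tested, 33 were lower in Ctrl cells, 0 were higher, and the median lay 1.40 log2 units below that of all genes. In 31 of the 33, both lentiviral libraries lay below both retroviral ones, as in most lower genes. *Ifit1*, which binds viral RNA (chr19:34715361-34724499, plus strand, mm9), stood at 174 RPKM in WT and 101 in K36M cells, against 21.8 in Ctrl and 1.17 in Nsd2 KD cells. *Isg15*, a ubiquitin-like modifier, stood at 181 and 185 RPKM against 42.6 and 1.59. *Cxcl10*, an interferon-induced chemokine, stood at 221 and 235 RPKM against 31.0 and 5.61. The 3 genes followed 1 order, with Ctrl cells between the retroviral pair and Nsd2 KD cells.
*Rsad2* (viperin) stood at 22.4 RPKM in WT and 2.33 in Ctrl cells, *Oasl1*, a regulator of IRF7 translation, at 31.2 and 3.15, and *Ifi44* at 36.9 and 3.17. *Irf7*, the factor that amplifies interferon production, stood at 44.3 and 17.7 RPKM.

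Antigen presentation, which interferon also turns on, was lower along with these genes. Of 15 genes of MHC class I and peptide loading, 9 were lower and 0 higher, with a median 1.02 log2 units below that of all genes. In all 9 both lentiviral libraries lay below both retroviral ones, as did 42.4% of all genes and 81.7% of all lower genes. *B2m*, the light chain shared by class I molecules, stood at 886 RPKM in WT and 954 in K36M cells, against 245 in Ctrl and 139 in Nsd2 KD cells. *H2-K1*, a heavy chain, stood at 185 and 309 RPKM against 47.1 and 7.46. Class I genes resemble each other, so that reads can be split between them. Of the 50-base stretches, 7.81% were repeated in *H2-K1* and 32% in the related *H2-Q4*. *Nlrc5*, the transactivator of class I genes, stood at 9.73 and 7.42 RPKM against 2.62 and 0.967.

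The promoters of 2 of these genes are shown because each holds several matches close together. GAAANNGAA, the core of the element bound by IRF and STAT complexes, was searched in the same way, and overlapping matches were counted separately.
Ifit1, chr19:34640639-34640938, plus strand, 3 matches at −109, −103 and −84: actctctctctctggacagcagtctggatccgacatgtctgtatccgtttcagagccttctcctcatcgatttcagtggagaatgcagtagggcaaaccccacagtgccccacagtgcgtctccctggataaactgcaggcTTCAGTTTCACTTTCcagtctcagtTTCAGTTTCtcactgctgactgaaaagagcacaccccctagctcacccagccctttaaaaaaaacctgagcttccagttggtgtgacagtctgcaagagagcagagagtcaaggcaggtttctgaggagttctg
Isg15, chr4:156200769-156201068, minus strand, 3 matches at −78, −72 and −66: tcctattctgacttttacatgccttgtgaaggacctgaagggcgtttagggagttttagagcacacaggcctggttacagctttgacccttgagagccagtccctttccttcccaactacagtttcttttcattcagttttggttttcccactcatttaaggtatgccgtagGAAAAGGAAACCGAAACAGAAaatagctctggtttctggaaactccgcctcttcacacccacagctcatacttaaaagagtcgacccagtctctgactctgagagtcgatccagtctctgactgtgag
The motif was found for 19 of 27 interferon genes with a promoter in the table and 17 of the 24 that were lower, against 8.41% of the 9301 tested genes. *Oasl1*, 9.92-fold higher in WT cells, had 0 matches.

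Chemokines and inflammatory mediators had the lowest median of the 26 gene lists. Of 26 tested, 20 were lower in Ctrl cells and 0 higher, with a median 2.07 log2 units below that of all genes. In 12 of the 20 both lentiviral libraries lay below both retroviral ones, a position held by 42.4% of all genes and 81.7% of all lower genes. *Lcn2*, the siderophore-binding lipocalin (chr2:32240153-32243317, minus strand, mm9), stood at 269 RPKM in WT cells, 24.4 in K36M, 3.56 in Ctrl and 0.673 in Nsd2 KD cells, a log2 ratio of −6.24 [−6.63, −5.87]. *Saa3*, an acute-phase protein, stood at 417, 99.6, 8.86 and 0.973 RPKM in the same order. Both genes were several fold higher in WT cells than in K36M cells, which in turn lay above both lentiviral libraries. *Cxcl1*, which draws neutrophils, stood at 231 RPKM in WT cells and 33.0 in Ctrl cells, but at 15.9 in K36M cells. *Il6* did likewise, at 28.6 and 4.05 RPKM with 1.67 in K36M cells. In *Cxcl1* and *Il6* the 2 experiments therefore overlapped.
*Ccl5*, which draws T cells, was high in both retroviral libraries, at 218 RPKM in WT and 192 in K36M cells, against 11.9 in Ctrl and 3.24 in Nsd2 KD cells. *Ccl2*, the main monocyte chemokine and the most abundant gene of the list, stood at 1216 and 522 RPKM against 253 and 47.3. *Ccl8* was at 5.12 RPKM in WT cells and had 0 reads in Ctrl cells.

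Markers of leukocytes, endothelium, nerve and epithelium were mostly under 1 RPKM in both libraries, and those of pericytes and of cartilage and bone were not. Of 13 macrophage and leukocyte markers, 1 (*Cd14*) reached 1 RPKM, and the list summed to 4.72 RPKM in WT and 3.63 in Ctrl cells. The leukocyte phosphatase *Ptprc* stood at 0.00891 and 0 RPKM and the adaptor *Tyrobp* at 0 in both. Of 11 endothelial markers 1 (*Egfl7*) reached 1 RPKM, summing to 6.59 and 4.12 RPKM, of 13 Schwann and neural markers 2, summing to 15.5 and 24.7 RPKM, and of 11 epithelial markers 1 (*Krt19*), summing to 9.37 and 6.77 RPKM. Pericyte markers reached 1 RPKM in 5 of 8, summing to 89.0 RPKM in WT and 94.4 in Ctrl cells, with 2 higher (*Mcam* and *Notch3*) and 1 lower (*Rgs5*) in Ctrl cells. Chondrogenic and osteogenic markers did so in 6 of 13, summing to 468 and 178 RPKM, with 1 higher (*Col2a1*) and 1 lower (*Spp1*).

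**Figure D4:**
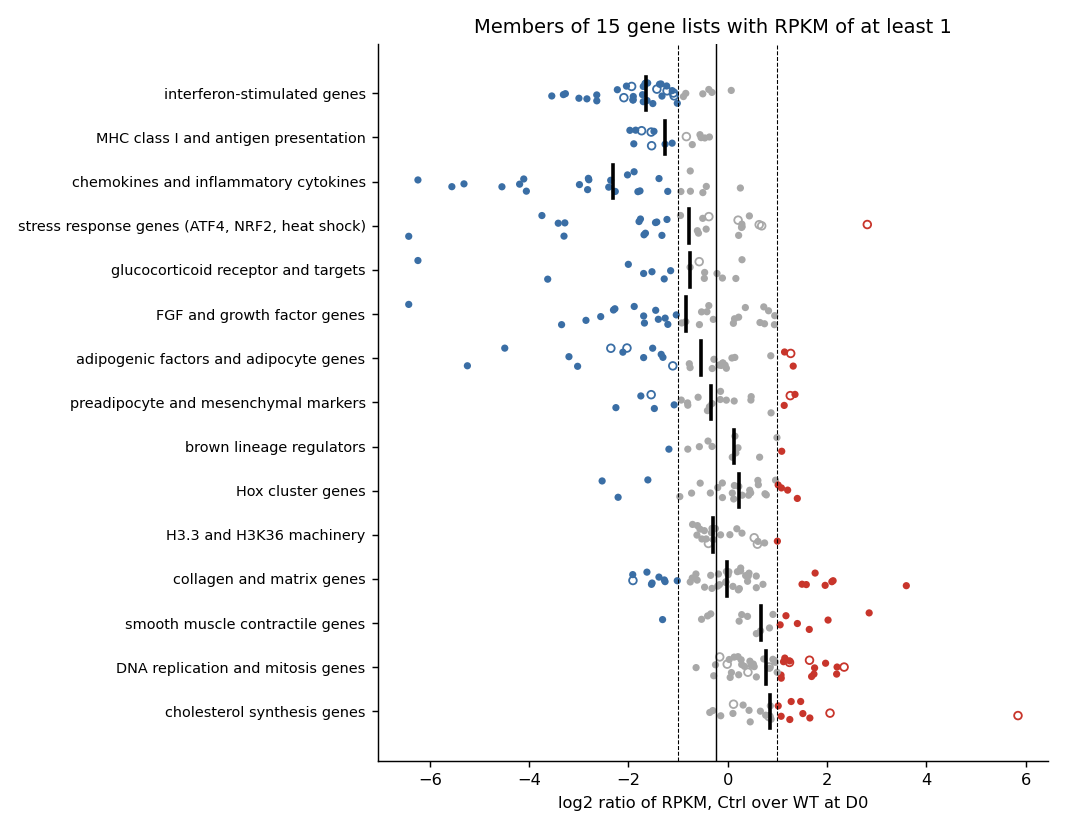
Log2 ratio of Ctrl to WT RPKM at D0 (x) of the members of 15 gene lists (rows) that reached 1 RPKM, as points (open where 10% or more of the gene is repeated), blue past 2-fold lower, red past 2-fold higher and grey in between. Thick bars are list medians, the solid line is the median of all genes (−0.24), dashed lines mark 2-fold, and genes at 0 in Ctrl cells are drawn at their 3-read bound, so that the interferon, class I and chemokine lists lie to the left and the mitosis and cholesterol lists to the right.

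Mesenchymal receptors that mark preadipocytes were at close levels in both populations, while several other markers were not. The receptors *Pdgfra* (29.5 RPKM in WT and 22.9 in Ctrl cells) and *Pdgfrb* (70.7 and 64.0) differed by less than 2-fold. Of 22 preadipocyte and mesenchymal markers, 3 were higher (*Thy1*, *Cd24a* and *Mfap5*) and 5 lower (*Cd34*, *Dcn*, *Ly6a*, *Icam1* and *S100a4*) in Ctrl cells. These shares were 13.6% and 22.7%, against 7.1% and 15.1% of all genes. Of 12 brown lineage regulators, 1 was higher (*Lhx8*, 1.30 and 2.76 RPKM) and 1 lower (*Prdm16*, 1.36 and 0.6), both near the detection limit used. Each was 8.33% of that list. *Ebf2*, a determinant of the brown lineage, stood at 6.82 and 3.90 RPKM.

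The adipogenic transcription factors did not move as a group. *Pparg*, the master regulator of fat cells, stood at 13.4 RPKM in WT and 12.5 in Ctrl cells, a log2 ratio of −0.10 [−0.29, 0.09], with 11.5 in K36M and 26.4 in Nsd2 KD cells. *Cebpb* and *Cebpd*, the early factors, were within 2-fold, at 137 and 79.9 RPKM and at 42.8 and 25.3 RPKM. *Cebpa* was higher in Ctrl cells, at 14.7 RPKM against 6.64 in WT, 6.33 in K36M and 0.239 in Nsd2 KD cells. The WT and Ctrl controls thus started with equal *Pparg* and unequal *Cebpa*.
Several lipid genes were lower in Ctrl cells. Of 28 adipogenic and adipocyte genes, 12 were lower and 3 higher. The list median relative to all genes was −0.29, and −0.03 without genes of 10% or more repeated sequence. *Lpl*, lipoprotein lipase, stood at 204 RPKM in WT and 55.5 in K36M cells, against 22.2 in Ctrl and 11.5 in Nsd2 KD cells. *Dgat2*, the last enzyme of triglyceride synthesis, stood at 30.3 and 17.4 RPKM against 3.73 and 2.27. *Fabp4*, a fatty acid carrier, stood at 37.6 and 18.5 RPKM against 14.8 and 7.16. These 3 genes had the same order over the 4 libraries. *Plin2*, which coats lipid droplets, was lower in Ctrl cells (19.5 RPKM) than in WT (99.7), K36M (195) and Nsd2 KD cells (59.6). The 3 higher genes were *Cebpa* and the fatty acid synthesis enzymes *Fasn* (20.1 and 50.1 RPKM) and *Acaca* (4.18 and 10.1, with 69% repeated sequence).

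The labels describe GR-flox/flox cells, to which retroviral Vec or Cre was given to keep or delete the receptor, and do not say which libraries carried Cre. The study's methods instead describe cells of WT mice. Whether the receptor gene was intact in either population was therefore not known, and *Nr3c1* was read as a check. It stood at 30.9 RPKM in WT and 25.7 in K36M cells, against 12.7 in Ctrl and 14.1 in Nsd2 KD cells, a log2 ratio of −1.28 [−1.36, −1.20], so the message was present in all 4. A total per transcript does not show whether a single exon is missing. Of 15 genes of the receptor and its targets, 7 were lower and 0 higher, with a median 0.51 log2 units below that of all genes. *Mt2*, a metallothionein, stood at 181 and 14.7 RPKM and *Tsc22d3* (GILZ), a classic steroid target, at 19 and 4.75 RPKM in WT and Ctrl cells. *Lcn2* and *Klf9* count in this list and in others as well.

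Genes of cell division were higher in Ctrl cells than in WT cells. Of 42 genes of DNA replication and mitosis, 15 were higher and 0 lower, with a median 1.02 log2 units above that of all genes. The 15 were mainly those of G2 and mitosis. *Plk1*, the mitotic kinase, stood at 8.21 RPKM in WT and 10.9 in K36M cells, against 32.2 in Ctrl and 8.93 in Nsd2 KD cells. *Mki67*, the proliferation marker Ki-67, stood at 15.1, 20.1, 48.7 and 13.9 RPKM in the same order. *Aurkb*, of the chromosomal passenger complex, stood at 5.59, 8.18, 25.6 and 13.8 RPKM. Ctrl cells were the highest of the 4 in *Plk1*, *Mki67* and *Aurkb*, but not over the whole list. The list summed to 900 RPKM in WT, 1468 in K36M, 1430 in Ctrl and 1166 in Nsd2 KD cells. WT cells were thus the lowest, and K36M cells were about as high as Ctrl cells. In only 5 of the 15 did both lentiviral libraries exceed both retroviral ones, a position held by 17.9% of all genes and by 74.4% of the 864 higher ones. *Ccnb1*, the mitotic cyclin, stood at 10.4 RPKM in WT and 52.8 in Ctrl cells with 29% repeated sequence, and of 35 members under 10% repeated, 12 were higher.

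Cholesterol synthesis genes were higher in Ctrl cells. Of 22 genes, 9 were higher in Ctrl cells and 0 lower, with a median 1.09 log2 units above that of all genes. In all 9 both lentiviral libraries exceeded both retroviral ones, a position held by 17.9% of all genes and 74.4% of all higher genes. Of 18 members under 10% repeated, 7 were higher. *Mvk*, mevalonate kinase, stood at 5.10 RPKM in WT and 4.92 in K36M cells, against 14.1 in Ctrl and 8.13 in Nsd2 KD cells, a log2 ratio of 1.47 [1.22, 1.73]. *Srebf2*, which encodes SREBP2, stood at 22.6 and 20.3 RPKM against 47.6 and 75.7. *Idi1* (0.310 and 17.8 RPKM) and *Fdps* (3.34 and 13.9) are repeated genes, at 84.5% and 67.1%. The sterol element TCACNCCAC was found in 0 of 16 promoters of the list in the table, and in 1.34% of the 9301 tested genes.

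Contractile genes and type I collagen were highest in Ctrl cells, and were low in the Nsd2 KD cells that are their partner. Of 17 smooth muscle contractile genes, 6 were higher in Ctrl cells and 1 (*Ankrd1*) lower, with a median 0.91 log2 units above that of all genes. In 0 of the 6 did both lentiviral libraries exceed both retroviral ones, against 17.9% of all genes and 74.4% of all higher genes. *Acta2*, smooth muscle actin, stood at 529 RPKM in WT, 424 in K36M, 1193 in Ctrl and 126 in Nsd2 KD cells. *Tagln*, transgelin, stood at 136, 187, 425 and 35.3 RPKM in that order, and *Cnn1*, calponin, at 11.7, 24.5, 47.7 and 6.04. Of 44 collagen and matrix genes 7 were higher (15.9%) and 9 lower (20.5%), against 7.1% and 15.1% of all genes. Their median lay 0.23 above that of all genes. *Col1a1* stood at 560, 223, 1678 and 263 RPKM and *Col1a2* at 143, 126, 484 and 8.21, the 2 chains of type I collagen. The proteoglycan *Vcan* (196 RPKM in WT and 81.1 in Ctrl cells) and the phosphoprotein *Spp1* (423 and 112) were among the lower matrix genes. Of 22 matrix proteases and inhibitors 5 were higher (22.7%) and 7 lower (31.8%), among them the inhibitor *Timp3* (189 and 32.8 RPKM) and the protease *Mmp11* (41.3 and 9.46).

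As deposited, growth factor genes past 2-fold were all lower in Ctrl cells. Genes of the TGF-beta, BMP, activin and Wnt pathways differed both ways. Of 31 FGF and other growth factor genes, 14 were lower in Ctrl cells (45.2%) and 0 higher, with a median 0.60 log2 units below that of all genes. Rescaled to a median of 0, 12 of them were lower and 3 higher. *Kitl*, the KIT ligand, stood at 13.8 RPKM in WT and 1.36 in Ctrl cells, *Vegfa*, the angiogenic factor, at 176 and 55.0, and *Fgf7*, a mesenchymal growth factor, at 163 and 59.8. *Igfbp4*, which binds IGFs, stood at 38.8 and 6.59 RPKM but was high in Nsd2 KD cells (102 RPKM). Of 28 genes of the TGF-beta, BMP and activin pathways 4 were higher (14.3%) and 6 lower (21.4%), against 7.1% and 15.1% of all genes. The higher ones were *Id1* (19.3 and 49.2 RPKM), *Id4* (2.28 and 8.75), *Smad6* (9.96 and 34.5) and *Bambi* (0.705 and 1.82), and the lower ones included the BMP antagonist *Grem1*, at 255 and 60.9 RPKM. The median of the list was 0.04 relative to all genes. Of 21 Wnt pathway genes 2 were higher (9.52%) and 5 lower (23.8%), with *Rspo2* at 18.4 and 6.2 RPKM and a list median of 0.04 relative to all genes.

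Early response genes were split. Of 17 AP-1 and early growth response genes, 3 were higher (*Egr1*, *Egr3* and *Fos*) and 5 lower (*Atf3*, *Nr4a2*, *Myc*, *Fosl2* and *Maff*). These shares were 17.6% and 29.4%, against 7.1% and 15.1% of all genes. The list median was 0.04 relative to all genes. *Egr1* stood at 15.1 RPKM in WT and 58.2 in Ctrl cells, and *Myc* at 95 and 23.5. Of 25 p53 targets and cell cycle inhibitors 5 were lower (20%, near the share of all genes) and 0 higher, with *Gadd45a* at 139 and 7.07 RPKM furthest. Rescaled to a median of 0, 4 of them were lower and 1 higher. Of 24 hypoxia and glycolysis genes 8 were lower (33.3%), including *Ndrg1* (52.7 and 3.87 RPKM) and *Hk2* (29.1 and 9.47). In the same list 1 was higher (4.17%), the repeated gene *Pgam1* (7.96 and 134).

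Genes that record position, parent of origin or sex differed in part. Over all genes, 7.1% were higher and 15.1% lower. Of 27 Hox genes 4 were higher (*Hoxa3*, *Hoxa4*, *Hoxc5* and *Hoxd4*) and 3 lower (*Hoxc11*, *Hoxc12* and *Hoxc13*) in Ctrl cells, with *Hoxc13* at 5.71 and 1.87 RPKM. The Hox shares were 14.8% higher and 11.1% lower. Both lentiviral libraries lay above both retroviral ones in 1 of the higher 4, and below them in 0 of the lower 3. The higher 4 lie toward the 3′ ends of their clusters and the lower 3 toward the 5′ end of theirs. Whether position matters was not tested, and 20 of the 27 were within 2-fold. Nsd2 KD cells did not share the difference in *Hoxa3* (0.654 RPKM, against 2.35 in WT cells) or in *Hoxc13* (7.71 RPKM). Of 32 T-box, Meis, Pbx and other positional genes 2 were higher (6.25%) and 5 lower (15.6%), near the shares of all genes. Of 20 imprinted genes 1 (*Peg3*) was higher (5%) and 6 lower (30%). Of 16 retinoid and xenobiotic genes 1 was higher (6.25%) and 4 lower (25%), and of 4 skeletal myogenic genes 1 (*Actc1*) was lower. Reads of both X inactivation and Y-linked genes were present in both populations. *Xist* stood at 54.0 RPKM in WT and 24.7 in Ctrl cells, with 105 in K36M and 0.0801 in Nsd2 KD cells, although the kit did not keep strand and its antisense partner is not separated. The Y-linked helicase *Ddx3y* stood at 18.6 and 4.49 RPKM and *Eif2s3y*, a Y-linked translation factor, at 7.38 and 9.17. Of 5 sex-linked genes tested, 3 were lower and 0 higher.

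Endogenous genes of the machinery that the study perturbed were nearly all within 2-fold between its controls. Of 21 genes of H3.3 deposition, H3K36 methylation and Polycomb, 1 was higher, *Phf19* at 1.97 and 3.95 RPKM, which lies at the 2-fold limit, and 0 were lower. Over all genes the shares were 7.1% higher and 15.1% lower. *Nsd2*, the H3K36 methyltransferase knocked down in the partner of the Ctrl library, stood at 17.5 RPKM in WT, 30.9 in K36M, 19.9 in Ctrl and 5.85 in Nsd2 KD cells. *Ezh2*, the H3K27 methyltransferase, stood at 15.4 and 25.8 RPKM, a log2 ratio of 0.74 [0.62, 0.87]. *H3f3b*, an endogenous H3.3 gene, stood at 164 and 125 RPKM, and *H3f3a*, of which 93% is repeated, at 11.3 and 16.4. Whether reads of the H3.3 transgene in WT cells were counted toward either gene was not tested.

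The D2 libraries of the same populations, taken 2 days into differentiation, share no library with the D0 pair and show how much of the baseline difference was still there. At D2, 560 of 11610 genes (4.82%) were more than 2-fold higher in Ctrl cells and 745 (6.42%) lower. Of the 864 genes higher at D0, 315 (36.5%) were still so, and of the 1843 lower ones 257 (13.9%) were. Read the other way, 56.2% of the genes higher at D2 and 34.5% of those lower at D2 had been so at D0. Most of what carried over on the higher side was repeated genes, since 55 of the 486 higher genes under 10% repeated (11.3%) stayed higher. *Rpl19*, for example, stood at 0.993 and 461 RPKM at D2.

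**Figure D5:**
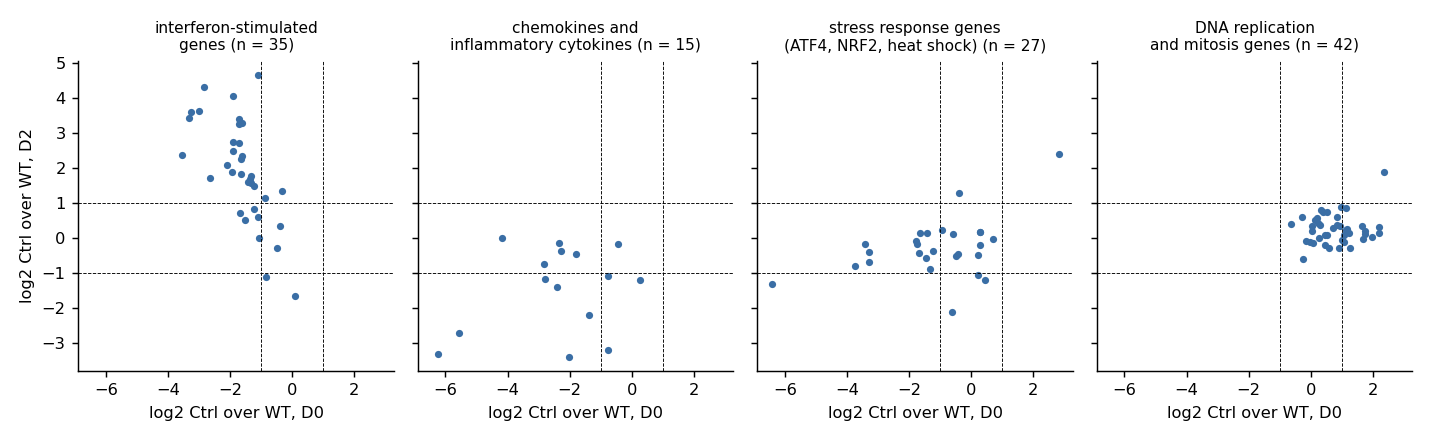
Log2 ratio of Ctrl to WT RPKM at D0 (x) against the same ratio at D2 (y), with 1 point per gene, for the members of 4 lists that reached 1 RPKM at both times. Dashed lines mark 2-fold, and most interferon genes lie below 0 at D0 and above 0 at D2 (*Ifit1* at −3.0 and 3.62), while most stress and mitosis genes lie within 2-fold at D2 (*Trib3* at −3.41 and −0.17).

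The lists took different courses. Stress genes came together, with 4 of 27 lower and 2 higher at D2. *Ddit3* stood at 173 RPKM in WT and 108 in Ctrl cells at D2, *Trib3* at 90.9 and 80.7, and *Atf3* at 32.1 and 28.9. In these 3 genes the Ctrl level at D2 had come up from its D0 level to near that of WT cells. Interferon genes turned over, with 26 of 35 higher and 2 lower in Ctrl cells at D2. *Ifit1* stood at 0.933 and 11.5 RPKM, *Isg15* at 4.43 and 19 and *Cxcl10* at 1.43 and 28.7, so that the level in WT cells had dropped further than that in Ctrl cells. Chemokines stayed on the lower side or came together, with 9 of 15 lower and 0 higher in a list that does not hold *Cxcl10*, which was counted with the interferon genes. *Lcn2* (270 and 27.5 RPKM) and *Saa3* (286 and 44.1) remained lower, while *Ccl2* (12.8 and 9.85) and *Ccl5* (7.20 and 7.19) were near equal at a low level.

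Adipocyte genes were lower in Ctrl cells at D2 in 8 of 28 and higher in 0. *Fabp4* stood at 3249 RPKM in WT and 1269 in Ctrl cells, *Dgat2*, the triglyceride enzyme, at 207 and 49.2, and *Cebpa*, which had been higher in Ctrl cells, at 208 and 78.7. *Pparg*, at 66.7 and 37.7 RPKM, was within 2-fold. *Lpl*, at 2145 and 1073 RPKM, lay at the 2-fold limit without passing it (log2 ratio −0.999). Mitosis genes had come together, with 1 of 42 higher, and *Plk1* stood at 7.79 and 8.02 RPKM. Cholesterol genes went from 9 higher and 0 lower to 1 higher and 4 lower of 22, with *Mvk* at 6.25 and 6.34 RPKM. *Acta2* was low in both, at 7.73 and 7.00 RPKM.

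Set against the partner libraries of D0, 643 of the 864 higher genes (74.4%) and 1506 of the 1843 lower genes (81.7%) had both lentiviral libraries on 1 side of both retroviral ones, against 17.9% and 42.4% of all genes, a background that includes genes of any fold. Among genes under 10% repeated these were 308 of 486 (63.4%) and 1290 of 1584 (81.4%). The 4 libraries are not replicates, and 2 against 2 could not give a permutation p below 0.333. Retroviral PPARγ-expressing WT cells without PPARγ ligand stood nearer Ctrl cells in several of these genes. *Lcn2* was at 1.29 RPKM in them, *Saa3* at 5.20, *Atf3* at 1.26, *Fgf21* at 0.194, *Ifit1* at 9.85 and *B2m* at 261. *Mos* (20.5 RPKM) and *S100a4* (655), among others, were on the side of WT cells. Those cells were also sub-confluent, and the part of vector, PPARγ or density was not tested.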

How the data were processed

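RNA of WT and Ctrl preadipocytes at D0 was sequenced from 1 library each, after an unstranded library kit. The deposited files hold RPKM values per RefSeq transcript that the authors computed. Base calling with CASAVA 1.8.2 and build mm9 stand in the submitters' processing notes, and the RNA-Seq aligner, the counter and the read length are not given in the sources used here. The ChIP-Seq samples were not analysed here.

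RefSeq rows were mapped to symbols (28436 of 29082 transcripts), and each gene was represented by its transcript of highest average level across the 14 libraries. Genes with at least 1 RPKM in either library were compared by the ratio of deposited RPKM without a pseudocount, at the 2-fold threshold of the study. Whole reads were recovered from the RPKM steps, and a gene at 0 was given a bound of 3 reads. Repeated sequence was counted on NCBIM37 (mm9) with 50-base stretches every 10 bases of the GENCODE M1 transcript nearest in length. Motif positions are those of the first base of the match relative to the start. Scripts ran in Python 3.11.15 with numpy 2.4.6, pandas 2.3.3, SciPy 1.17.1, numba 0.67.0 and matplotlib 3.10.9, and were tested on simulated data.

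The members, the 26 gene lists and the 6 marker lists were chosen with earlier results of these data known. Named genes were the 12 at each end among those with at least 5 RPKM in the higher library, up to 4 of each list by absolute log2 ratio, the sex-linked genes, *Nr3c1*, H3.3, *Nsd2* and the adipogenic factors, and the 5 that turned furthest between D0 and D2. Further list members, and *Actg1*, *Actb* and the counts on repeated sequence, were chosen after the values were seen. *Pref1*, *Ifi203*, *Col12a1*, *H19*, *Hmgcs1* and *Cd68* could not be matched. The alternatives were no filter, 5 RPKM in either library, 1 RPKM in both, pseudocounts of 0.1 and 1, RPKM summed over a gene's transcripts, the transcript highest in the 2 libraries compared, and rescaling to a median of 0. Leaving out genes with 10% or more repeated sequence was added after the data were seen. A few genes that the rule names are not reported here.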

Additional observations from a re-analysis of the deposited data

Results flagged for a closer look

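In 8 of the named genes the Ctrl to WT difference was past 2-fold in opposite directions at D0 and at D2. The difference between the days was not tested, since each condition and day had 1 library. The naming rule itself took in the 5 genes that turned furthest (*Cxcl10*, *Rsad2*, *Oasl1*, *Ifit1* and *Zbp1*), so their make-up is a description. These 5 and *Ifi44* are interferon-induced and were lower in Ctrl cells at D0 and higher at D2. *Ifi44* had a log2 ratio of −3.54 at D0 and 2.38 at D2, *Oasl1* −3.31 and 3.42, *Rsad2* −3.27 and 3.60, *Ifit1* −3.0 and 3.62, *Cxcl10* −2.84 and 4.33, and the nucleic acid sensor *Zbp1* −2.15 and 4.45. The other 2 went from higher to lower, *Rarres1* at 3.11 and −2.49 and *Cebpa* at 1.14 and −1.40. Among all 8991 genes with at least 5 RPKM, 61 turned in this way, of which 49 were under 10% repeated.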

How the results depend on the processing

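With 1 library per condition no replicate could be left out, and no spread between cultures stands behind any value. No paired analysis was possible because the labels give no replicate numbers and no test was made. Without a filter, 2117 genes were higher and 4060 lower in Ctrl cells at D0, of which 733 and 1095 were so at D2 and 1073 and 2695 did not overlap between lentiviral and retroviral libraries. At 5 RPKM, 549 were higher and 1220 lower, with 204 and 122 so at D2. At 1 RPKM in both libraries, 169 higher and 140 lower genes were so at D2. On log2(RPKM + 1), 1223 genes were lower, 147 of them also at D2, and 2 Wnt genes and 1 T-box, Meis and Pbx gene were lower (5 of each as reported), 3 proteases were higher (5 as reported), and the chemokine median was −1.54 relative to all genes. After rescaling, 932 lower genes did not overlap and 3 Wnt genes were lower. It also made 3 growth factor genes and 1 gene of the p53 and cell cycle inhibitor list higher (0 of each as reported). Without genes at 10% or more repeated sequence, chosen after the data were seen, 486 genes were higher, 55 of them also at D2 and 308 without overlap, and the stress median was −1.06. No named gene past 2-fold changed direction under these alternatives. Of 682 recomputed ratios of named genes, 547 stayed within their counting interval or bound and 135 moved out of it or to within 2-fold. Genes under 10 reads, such as *Ppef1* in Ctrl cells, have wide intervals, and their ratios are limited by depth.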
